A study of Arabidopsis thaliana with 24 samples.

Results

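Wild-type (WT) Arabidopsis thaliana hypocotyl explants that had passed through callus-inducing and shoot-inducing medium were compared with freshly cut etiolated hypocotyl. The 3 WT libraries taken after 6 days on shoot-inducing medium (SIM 6 d) were set against the 3 WT libraries taken within 15 minutes of cutting (0 d). These are 6 of the 24 libraries of the series, chosen by genotype and sampling time alone. The SIM 6 d explants were of ecotype Columbia (Col-0), about 10 mm long, and came from seedlings grown for 7 days in darkness at 22 °C. They spent 4 days in constant light on callus-inducing medium (CIM), which held the auxin 2,4-D at 0.5 µg/ml and kinetin, a cytokinin, at 0.05 µg/ml. They then spent 6 days on SIM, which held IAA, an auxin, at 0.15 µg/ml and 2-IPA, a cytokinin, at 0.5 µg/ml. The 0 d explants had the same ecotype and dark growth, and neither medium. The labels used here do not state the light on SIM. The rest of the series holds WT libraries at CIM 4 d and SIM 4 d and the same 4 stages of siz1-2, a mutant of the SUMO E3 ligase gene SIZ1, with 3 libraries a group. Below, SIM 6 d and 0 d mean WT unless siz1-2 is named.

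An etiolated hypocotyl is a stem that elongates in darkness: its cells expand by taking up water and loosening their walls, few of them divide, and its plastids hold no chlorophyll. On auxin-rich medium, cells next to the vasculature divide and form a callus that expresses genes of the lateral root programme. On cytokinin-rich medium, part of that tissue forms shoot meristems, in which WUSCHEL marks the organising centre, and greens in the light.

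Each value is a number of reads per 1000000 library reads (rpm), not scaled by transcript length, so levels are compared between libraries and not between genes. Some reads count towards more than 1 isoform or gene: the values of the isoforms used here sum to 102.5 to 103.6% of the library total, and those of all isoforms to 1.53 to 1.71 times it, so a percentage of reads is relative to that total. A gene was called at a limma adjusted p below 0.05, adjusted over all genes tested, and log2 fold changes are on the log2(rpm + 1) scale, SIM 6 d over 0 d, ± SE. The 6 libraries held 9136852 to 13897908 reads each, and all 24 held 7979350 to 15591781. Libraries of 1 group were not alike throughout. In 0 d replicate 1, 135 genes lay over 4-fold from both other 0 d libraries, and in SIM 6 d replicate 2, 100 genes lay over 4-fold from both others, against 33 in SIM 6 d replicate 1 and 0 to 8 in the remaining 3 libraries. Calls lost without either of these libraries are named beside the genes. Outside the 6, CIM 4 d replicate 2 had 190 such genes. The free-text descriptions of SIM 6 d replicates 2 and 3, in both genotypes, exchange the days on the 2 media, whereas their titles and sampling times read as SIM 6 d, and the titles and times were used.

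Of 20361 genes tested, 10115 (49.7%) were higher and 5070 (24.9%) were lower at SIM 6 d than at 0 d, so 74.6% of genes were called. At 2-fold or more, 5040 genes (24.8%) were higher and 2743 (13.5%) lower. At 8-fold or more the order turned, with 396 genes (1.94%) higher and 596 (2.93%) lower. The 10 genes with most reads took 4.08 to 5.06% of reads in SIM 6 d libraries, against 8.99 to 9.24% in 0 d libraries. The median log2 fold change of all genes was 0.36. Scaling by TMM factors moved this median by -0.29 and gave 7697 higher and 6837 lower, 53.0% of calls higher in place of 66.6%. Median-of-ratios scaling moved it by -0.35 and gave 7219 higher and 7255 lower, 49.9% higher. Changes no larger than these shifts therefore have a direction only relative to the scaling, and groups of genes below are read against the median of 0.36. Counts of list members are likewise to be read beside the shares of all genes, 49.7% higher and 24.9% lower. The lists were chosen with earlier results of these data known, so a count describes the members listed and not a whole class of genes. The SIM 6 d and 0 d libraries did not overlap for 79.1% of all genes tested, so a lack of overlap reported below is the common case.

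**Figure D1:**
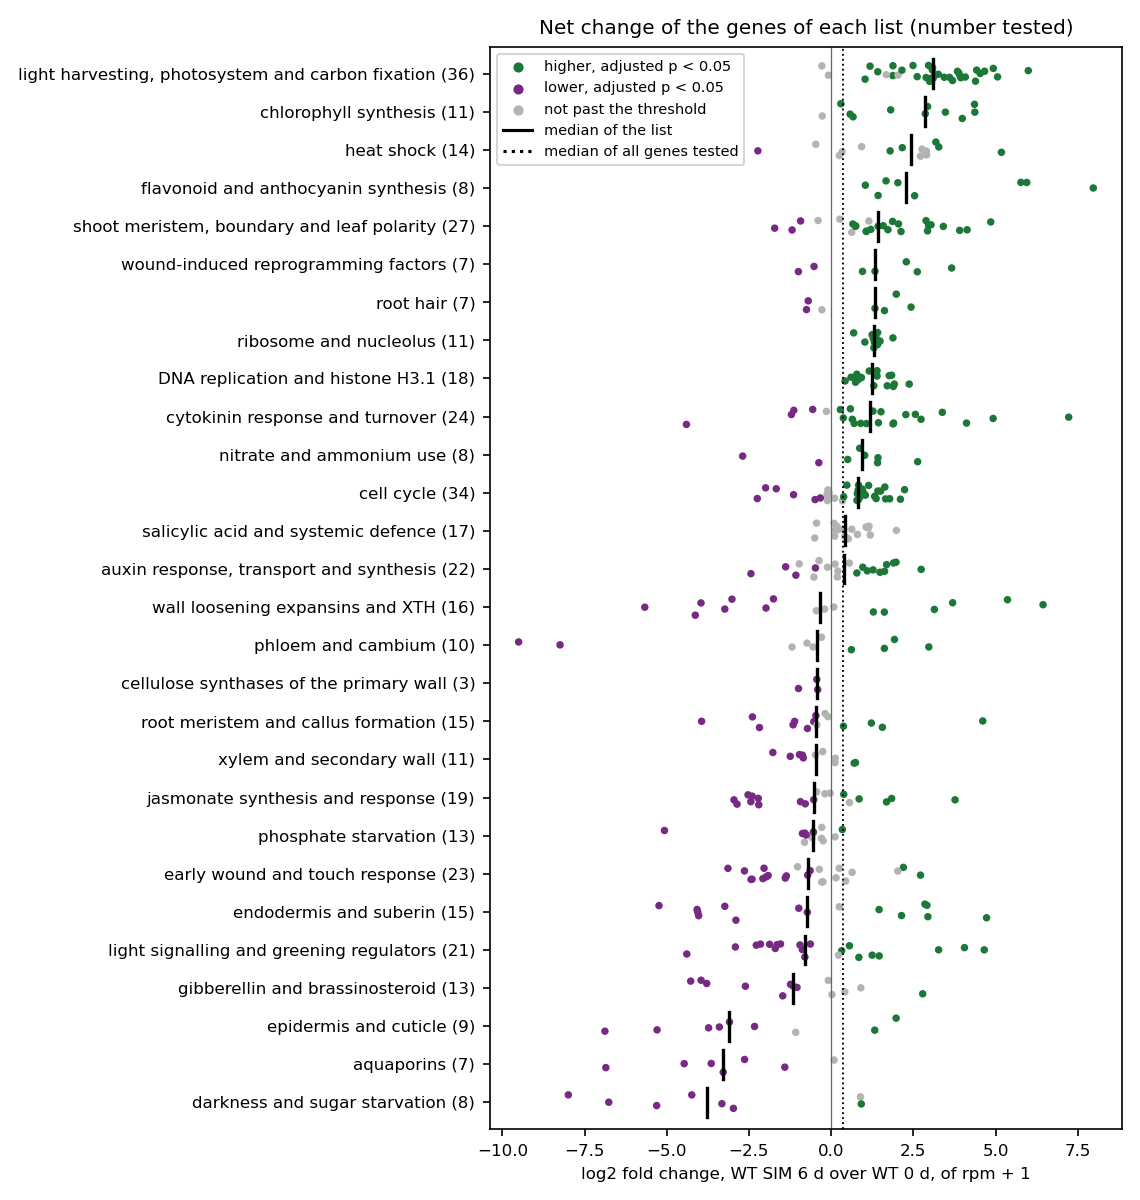
Net log2 fold change (WT SIM 6 d over WT 0 d, of rpm + 1; horizontal axis) of the tested genes of each list with 3 or more tested members. Points are genes, black ticks are list medians and the dotted line is the median of all genes tested, 0.36; the list of light harvesting, photosystem and carbon fixation genes has the highest median, 3.09, and the list for darkness and sugar starvation the lowest, -3.78.

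The genes with the largest rise coded for pigment, hormone-turnover, wall and defence-related proteins. CHS (AT5G13930), chalcone synthase, the first enzyme of flavonoid synthesis, had 740.4, 607 and 629.8 rpm in SIM 6 d libraries, against 17.1, 0 and 0 rpm in 0 d libraries (log2 fold change 7.97 ± 0.70, limma adjusted p = 5.86e-09). CKX3 (AT5G56970), a cytokinin oxidase that degrades cytokinin, had 247, 153 and 181 rpm in SIM 6 d libraries, against 0.496, 0.262 and 0.109 rpm in 0 d libraries (log2 fold change 7.22 ± 0.20, limma adjusted p = 1.4e-16). EXPA10 (AT1G26770), an expansin that loosens cell walls, had 259, 279 and 232 rpm in SIM 6 d libraries, against 2.65, 1.57 and 1.75 rpm in 0 d libraries (log2 fold change 6.44 ± 0.17, limma adjusted p = 6.1e-17). In all 3 genes every SIM 6 d library lay above every 0 d library, and CHS had reads at 0 d only in replicate 1. GRP9 (AT2G05440), a glycine-rich protein gene, had 13207, 8748 and 10600.2 rpm in SIM 6 d libraries, against 98.5, 65.0 and 133 rpm in 0 d libraries (log2 fold change 6.80 ± 0.75, limma adjusted p = 1.44e-07). AT2G33850, annotated as an E6-like protein, had 215, 185 and 206 rpm in SIM 6 d libraries, against 0.0827, 0.0872 and 0 rpm in 0 d libraries, which is 8101 reads against 2 and a ratio of 3297 (95% counting interval 913 to 27233). The other 7 were PR-1-LIKE (AT2G19990), AT5G26220 (ChaC-like family), AT5G50130 (Rossmann-fold family), PERK4 (AT2G18470) (a proline-rich extensin-like receptor kinase), GASA5 (AT3G02885), AT2G38380 (a peroxidase) and AT2G43610 (a chitinase), with log2 fold changes of 6.04 to 6.88. Groups that do not overlap were a condition for this ranking, and 79.1% of all genes tested met it. In whole explants, more cells of a type and more RNA per cell of that type cannot be told apart.

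The largest falls reached further on the log2 scale than the largest rises and came from genes for wall proteins, transporters and water channels. ATPMEPCRD (AT2G43050), annotated in the pectin methylesterase inhibitor superfamily and located on chromosome 2, 17902370 to 17904443 of TAIR10.1, had 0.216, 0.366 and 0.238 rpm in SIM 6 d libraries, against 1673, 1829 and 1517 rpm in 0 d libraries (log2 fold change -10.36 ± 0.20, limma adjusted p = 1.32e-18). BGAL4 (AT5G56870), a beta-galactosidase gene, had 9.14, 5.42 and 5.32 rpm in SIM 6 d libraries, against 3511, 3212 and 3744 rpm in 0 d libraries (log2 fold change -8.87 ± 0.35, limma adjusted p = 8.06e-14). ELP (AT1G12090), an extensin-like protein gene, had 5.61, 6.37 and 0 rpm in SIM 6 d libraries, against 1663, 1785 and 1734.7 rpm in 0 d libraries (log2 fold change -8.89 ± 0.64, limma adjusted p = 4.12e-10). These genes stood at over 1500 rpm in every 0 d library and under 10 rpm in every SIM 6 d library. Transporters were prominent among the rest. The sucrose exporters of phloem parenchyma SWEET11 (AT3G48740) and SWEET12 (AT5G23660) changed by -9.50 ± 0.23 and -8.25 ± 0.29 on the log2 scale, and NRT1.5 (AT1G32450), which loads nitrate into the xylem, by -9.31 ± 0.18. Among the vacuolar water channels, TIP2;2 (AT4G17340) changed by -8.95 ± 0.19, and TIP2;3 (AT5G47450) had 1 read in the SIM 6 d libraries together against 18366 in the 0 d libraries, which makes the 0 d level 22560.3 times higher (95% counting interval 4049 to 891130.0). AT4G37220 (WCOR413 family), AT2G05540 (glycine-rich), AT2G45180 (lipid-transfer family) and the dark-induced SEN1 (AT4G35770) completed the 12, at -7.99 to -9.88. For all but ELP and AT2G05540, the mean at CIM 4 d was already at or below 3.55 rpm.

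**Figure D2:**
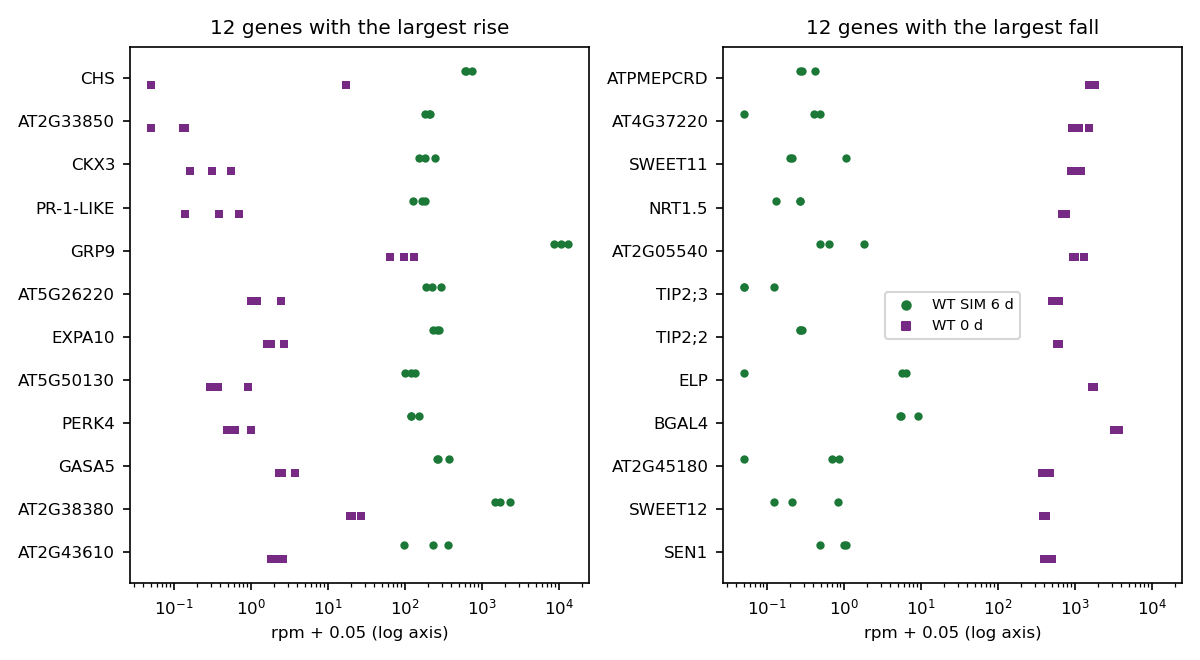
Values in each WT library (rpm + 0.05, log axis) of the 12 genes with the largest rise (left panel) and the 12 with the largest fall (right panel); circles are the 3 SIM 6 d libraries and squares the 3 0 d libraries. Groups that do not overlap were a condition for the choice of the 24 genes, and 1 of the 0 d libraries of CHS stands apart at 17.1 rpm.

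Genes of the photosynthetic apparatus rose together. Of 36 genes for light-harvesting proteins, photosystem subunits and carbon fixation, all tested, 32 rose and none fell, against 49.7% of all genes tested that were higher and 24.9% that were lower. The median log2 fold change of the list was 3.09. With TMM scaling 31 rose and with median-of-ratios scaling 30; by edgeR's quasi-likelihood test 27 rose and by DESeq2 25. RBCS1A (AT1G67090), a small subunit of Rubisco, had 357, 704 and 854 rpm in SIM 6 d libraries, against 294, 0.611 and 0.766 rpm in 0 d libraries (log2 fold change 5.99 ± 1.46, limma adjusted p = 0.00114). LHCB1.3 (AT1G29930), a light-harvesting protein of photosystem II, had 289.9, 429 and 575 rpm in SIM 6 d libraries, against 382, 2.18 and 1.09 rpm in 0 d libraries (log2 fold change 4.93 ± 1.38, limma adjusted p = 0.00341). Replicate 1 at 0 d held most of the 0 d reads of both genes, and for LHCB1.3 it lay above 1 SIM 6 d library. Summed over the list, the SIM 6 d libraries had 2857, 4481 and 5811 rpm, against 2335, 400 and 469 rpm in the 0 d libraries. Without 0 d replicate 1, 34 genes rose with a median of 4.103, and the log2 fold changes of RBCS1A and LHCB1.3 were 8.48 and 7.33. With it, edgeR and DESeq2 did not call either gene (adjusted p of 0.102 to 0.325). The 4 members not called were LHCA4 (AT3G47470) and LHCB4.2 (AT3G08940), at -0.08 ± 0.26 and -0.29 ± 0.39, and the Rubisco small subunits RBCS1B (AT5G38430) and RBCS3B (AT5G38410), which without 0 d replicate 1 were called at 3.73 and 4.27. LHCB1 and RBCS copies are near-identical, and no source used here says how reads were divided among them.

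Chlorophyll synthesis moved the same way. Of 12 genes, 11 were tested, 10 rose and none fell, with a median of 2.86; with either scaling 7 were higher and 1 lower, and by edgeR and DESeq2 6 and 1. The lower one was CAO (AT1G44446), chlorophyllide a oxygenase, which was not called without scaling (-0.27 ± 0.19) and stood at -0.60 with TMM. CHLH (AT5G13630), a subunit of the magnesium chelatase at the branch point to chlorophyll, had 142, 187 and 265 rpm in SIM 6 d libraries, against 59.0, 2.62 and 2.85 rpm in 0 d libraries (log2 fold change 4.36 ± 0.69, limma adjusted p = 1.46e-05). CRD1 (AT3G56940), a subunit of the cyclase that follows it, had 102, 166 and 192 rpm in SIM 6 d libraries, against 37.4, 2.01 and 2.30 rpm in 0 d libraries (log2 fold change 4.37 ± 0.70, limma adjusted p = 1.52e-05). GUN4 (AT3G59400), which activates the chelatase, had 12.7, 22.3 and 30.2 rpm in SIM 6 d libraries, against 5.71, 0.0872 and 0 rpm in 0 d libraries (log2 fold change 3.47 ± 0.53, limma adjusted p = 8.03e-06). In these 3 genes 0 d replicate 1 was the highest 0 d library, and it lay below every SIM 6 d library. PORA (AT5G54190), the protochlorophyllide reductase that acts in etiolated seedlings, reached 1 rpm in too few libraries to be tested, with 0, 0.0732 and 0 rpm in SIM 6 d libraries, against 119.7, 0.349 and 1.09 rpm in 0 d libraries. Its reads at 0 d came almost all from replicate 1. Without that library the chlorophyll list again had 10 higher and none lower, with a median of 3.55.

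The regulators of greening and of growth in the dark split. Of 21 light-signalling genes, 8 rose and 12 fell (median -0.80; 6 and 12 with TMM and 5 and 12 with median-of-ratios scaling). PIF4 (AT2G43010), a phytochrome-interacting factor that promotes growth in darkness, had 0.504, 0.22 and 1.19 rpm in SIM 6 d libraries, against 31.4, 31.8 and 33.9 rpm in 0 d libraries (log2 fold change -4.39 ± 0.21, limma adjusted p = 2.48e-13). PIF1 (AT2G20180), PIF3 (AT1G09530) and PIF5 (AT3G59060) of the same family also fell, at -2.15 ± 0.27, -1.70 ± 0.17 and -1.87 ± 0.34. In the opposite direction, HYH (AT3G17609), a homologue of the light-signalling factor HY5, had 23.2, 23.0 and 22.1 rpm in SIM 6 d libraries, against 0.248, 0.523 and 0.547 rpm in 0 d libraries (log2 fold change 4.05 ± 0.18, limma adjusted p = 1.76e-13). Neither PIF4 nor HYH had overlapping groups. HY5 (AT5G11260) itself had 36.8, 29.8 and 34.9 rpm in SIM 6 d libraries, against 13.8, 15.96 and 28.0 rpm in 0 d libraries (log2 fold change 0.84 ± 0.25, limma adjusted p = 0.00529), and its call was lost with either scaling and by edgeR and DESeq2 (adjusted p of 0.0808 to 0.184). The early light-induced proteins ELIP1 (AT3G22840) and ELIP2 (AT4G14690), which protect against excess light, rose by 4.65 and 3.27. GLK2 (AT5G44190), a factor that drives chloroplast genes, fell by 2.91, with 2.23, 2.93 and 4.69 rpm in SIM 6 d libraries, against 29.2, 27.7 and 34.7 rpm in 0 d libraries. Its relative GLK1 (AT2G20570) and the GATA factor GNC (AT5G56860), which also promote greening, fell too, at -1.65 ± 0.25 and -2.28 ± 0.22, while CGA1 (AT4G26150), the homologue of GNC, rose at 1.24 ± 0.33.

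Flavonoid synthesis genes rose. Of 14 genes 8 were tested and all 8 rose (median 2.28), also with both scalings; the untested 6 did not reach 1 rpm in 3 libraries. Besides CHS, F3H (AT3G51240), flavanone 3-hydroxylase, had 97.0, 90.11 and 70.8 rpm in SIM 6 d libraries, against 2.65, 0.0872 and 0 rpm in 0 d libraries (log2 fold change 5.77 ± 0.37, limma adjusted p = 6.93e-11). FLS1 (AT5G08640), flavonol synthase, had 101, 90.3 and 89.2 rpm in SIM 6 d libraries, against 1.99, 0.0872 and 0.109 rpm in 0 d libraries (log2 fold change 5.95 ± 0.32, limma adjusted p = 4.46e-12). CHI (AT3G55120), chalcone isomerase, was already present at 0 d, with 75.7, 80.9 and 68.8 rpm in SIM 6 d libraries, against 11.1, 15.0 and 10.6 rpm in 0 d libraries (log2 fold change 2.54 ± 0.24, limma adjusted p = 8.91e-09). SIM 6 d libraries lay above 0 d libraries in all 3. The late anthocyanin genes DFR (AT5G42800) and LDOX (AT4G22880) and the regulator PAP1 (AT1G56650) were among the untested. The G-box, CACGTG, a motif bound by light-signalling bZIP and bHLH factors, was searched on both strands in windows from 250 bases before to 50 after each gene's start. It stood in 6 of the 14 flavonoid windows (42.9%) and 11 of the 36 photosynthesis windows (30.6%), against 1728 of 19967 windows of tested genes (8.65%). The 14 include the 6 untested genes, and the untested DFR holds the motif, so the flavonoid share is not that of genes that rose. The I-box letters GATAAG stood in 16 of the 36 photosynthesis windows (44.4%), against 14.7% of all windows. The 16 include LHCA4, LHCB4.2 and RBCS1B, which were not called, and LHCA4 also holds the G-box. Neither photosynthesis share is therefore that of genes that rose. Sequences here are from the RefSeq copy of TAIR10.1, read 5′ to 3′ on the strand of the gene. The 250 bases before the starts of CHS and F3H are shown because both rose, had most of their 0 d reads in replicate 1 and hold the motif near the far end of the window, in capitals; a match describes the letters and shows no binding. The TAIR10.1 positions are chr5:4488226-4488475 (plus strand) and chr3:19024942-19025191 (plus strand).
CHS: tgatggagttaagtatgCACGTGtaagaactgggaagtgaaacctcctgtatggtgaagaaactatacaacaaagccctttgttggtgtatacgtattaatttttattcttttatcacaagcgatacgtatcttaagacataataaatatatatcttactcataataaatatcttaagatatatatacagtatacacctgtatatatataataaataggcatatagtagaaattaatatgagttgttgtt
F3H: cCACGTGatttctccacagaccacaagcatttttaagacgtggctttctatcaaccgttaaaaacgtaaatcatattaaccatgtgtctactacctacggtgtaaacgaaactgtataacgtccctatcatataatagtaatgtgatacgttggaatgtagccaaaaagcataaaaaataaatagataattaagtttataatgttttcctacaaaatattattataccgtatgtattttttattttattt

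Genes of carbon starvation in the dark fell. Of 8 genes, 6 fell and 1 rose, with a median of -3.78; without 0 d replicate 1, 2 rose. DIN6 (AT3G47340), an asparagine synthetase induced by darkness, had 0.576, 2.78 and 0.715 rpm in SIM 6 d libraries, against 283, 156 and 293 rpm in 0 d libraries (log2 fold change -6.76 ± 0.30, limma adjusted p = 1.06e-13). BCAT2 (AT1G10070), which degrades branched-chain amino acids, had 2.45, 1.90 and 2.06 rpm in SIM 6 d libraries, against 118, 106 and 148 rpm in 0 d libraries (log2 fold change -5.31 ± 0.26, limma adjusted p = 5.97e-13). DIN2 (AT3G60140), a glucosidase, had 6.98, 10.101 and 2.70 rpm in SIM 6 d libraries, against 158, 67.6 and 201 rpm in 0 d libraries (log2 fold change -4.24 ± 0.47, limma adjusted p = 1.74e-07). All 3 were lower in every SIM 6 d library. The raffinose synthase gene DIN10 (AT5G20250) fell by 2.97. PCK1 (AT4G37870), a gluconeogenic enzyme of seedling establishment, was the 1 that rose, at 0.91 ± 0.25, and its call was lost with median-of-ratios scaling and by DESeq2 (adjusted p = 0.0675 and 0.0527). The glyoxylate-cycle gene ICL (AT3G21720) fell by 3.32: it had 7.91, 6.08 and 2.46 rpm in SIM 6 d libraries, against 183, 20.0 and 55.8 rpm in 0 d libraries.

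The water channels of the elongating hypocotyl fell. Of 7 aquaporins 6 fell and none rose (median -3.28, also 6 with both scalings), and their summed level was 1715, 2230 and 2196 rpm in SIM 6 d libraries, against 15987, 14656 and 16279 rpm in 0 d libraries. PIP2;2 (AT2G37170), a plasma-membrane aquaporin, had 12.9, 23.9 and 9.61 rpm in SIM 6 d libraries, against 1842, 1784 and 1724 rpm in 0 d libraries (log2 fold change -6.85 ± 0.43, limma adjusted p = 5.64e-11). TIP1;2 (AT3G26520), a vacuolar one, had 927, 985 and 1109.9 rpm in SIM 6 d libraries, against 9933, 8922 and 10588 rpm in 0 d libraries (log2 fold change -3.28 ± 0.20, limma adjusted p = 1.31e-11). These groups were far apart. TIP1;1 (AT2G36830) had 12.9, 346 and 16.4 rpm in SIM 6 d libraries, against 596, 557 and 497 rpm in 0 d libraries, with SIM 6 d replicate 2 near the 0 d level (log2 fold change -3.65 ± 0.81, limma adjusted p = 0.000505), and its log2 fold change without that library was -5.14. TIP2;1 (AT3G16240) was the 1 that was not called, at 0.08 ± 0.56.

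Wall-loosening genes changed in both directions, by member. Of 16 tested, 6 rose and 7 fell. The risers were expansins and XTH33 (AT1G10550): EXPA1 (AT1G69530) had 1643, 1354 and 1563 rpm in SIM 6 d libraries, against 45.8, 32.1 and 31.5 rpm in 0 d libraries (log2 fold change 5.36 ± 0.16, limma adjusted p = 2.53e-16), and EXPA6 (AT2G28950), EXPA8 (AT2G40610) and EXPA4 (AT2G39700) rose by 3.69, 3.14 and 1.62. The fallers were the expansins EXPA5 (AT3G29030), which did not pass the filter without 0 d replicate 1, and EXPA11 (AT1G20190) and 5 xyloglucan endotransglucosylases, which cut and rejoin wall xyloglucan. XTH17 (AT1G65310) had 1.22, 0.952 and 1.11 rpm in SIM 6 d libraries, against 132, 115 and 76.9 rpm in 0 d libraries (log2 fold change -5.67 ± 0.30, limma adjusted p = 1.82e-12). XTH24 (AT4G30270) had 116, 129 and 86.2 rpm in SIM 6 d libraries, against 1718, 1675 and 1729 rpm in 0 d libraries (log2 fold change -3.96 ± 0.20, limma adjusted p = 1.36e-12). XTH15 (AT4G14130) fell as well, with 0.863, 1.39 and 2.14 rpm in SIM 6 d libraries, against 106, 31.6 and 20.8 rpm in 0 d libraries. No SIM 6 d library of these 4 genes overlapped the 0 d range. The 3 cellulose synthases of the primary wall fell: CESA6 (AT5G64740) had 196, 211 and 196 rpm in SIM 6 d libraries, against 396, 440.2 and 370.3 rpm in 0 d libraries (log2 fold change -0.995 ± 0.12, limma adjusted p = 2.93e-07), while CESA1 (AT4G32410) and CESA3 (AT5G05170) fell by 0.41 and 0.44. At CIM 4 d the 3 had been lower still than at SIM 6 d, CESA6 at 94.4 ± 5.72 rpm.

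Most genes of gibberellin and brassinosteroid synthesis and signalling fell. Of 13 gibberellin and brassinosteroid genes 8 fell and 1 rose (median -1.16), with 8 and 1 with both scalings and 8 and 2 without 0 d replicate 1. ROT3 (AT4G36380), a brassinosteroid-synthesis P450, had 16.7, 6.81 and 8.74 rpm in SIM 6 d libraries, against 201, 227 and 210.4 rpm in 0 d libraries (log2 fold change -4.27 ± 0.30, limma adjusted p = 1.88e-10). CPD (AT5G05690), another step, had 26.6, 27.7 and 25.0 rpm in SIM 6 d libraries, against 164, 159 and 176 rpm in 0 d libraries (log2 fold change -2.61 ± 0.12, limma adjusted p = 2.48e-13). GA2OX2 (AT1G30040), which inactivates gibberellin, was the gene that rose, with 103, 74.0 and 115 rpm in SIM 6 d libraries, against 16.9, 10.8 and 12.3 rpm in 0 d libraries (log2 fold change 2.78 ± 0.18, limma adjusted p = 3.27e-11). In each the groups stood clear of one another. BR6OX2 (AT3G30180), the last oxidase of brassinosteroid synthesis, had 2.45, 24.5 and 14.3 rpm in SIM 6 d libraries, against 163, 163 and 129.9 rpm in 0 d libraries (log2 fold change -3.79 ± 0.66, limma adjusted p = 3.86e-05), the lowest value being in SIM 6 d replicate 1. GASA1 (AT1G75750), a gibberellin-responsive gene, had 0.863, 87.0 and 0.874 rpm in SIM 6 d libraries, against 107, 91.2 and 114 rpm in 0 d libraries (log2 fold change -3.96 ± 0.97, limma adjusted p = 0.00115): replicate 2 of SIM 6 d was near the 0 d level, and neither edgeR nor DESeq2 called it (adjusted p = 0.0516 and 0.0518).

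The ribosomal and replication genes that were listed all rose, which describes these members and not all genes of either class. All 11 ribosome and nucleolus genes rose (median 1.31; also 11 with both scalings), and all 18 DNA replication and histone H3.1 genes rose (median 1.23; 17 with TMM and 15 with median-of-ratios scaling). FIB2 (AT4G25630), the fibrillarin of the nucleolus, had 142, 165 and 127 rpm in SIM 6 d libraries, against 39.0, 35.6 and 40.6 rpm in 0 d libraries (log2 fold change 1.88 ± 0.09, limma adjusted p = 4.71e-13). RPS6B (AT5G10360), a protein of the small ribosomal subunit, had 711, 701 and 688 rpm in SIM 6 d libraries, against 263, 236 and 250.4 rpm in 0 d libraries (log2 fold change 1.48 ± 0.07, limma adjusted p = 1.63e-13). MCM5 (AT2G07690), a subunit of the replicative helicase, had 63.4, 77.4 and 78.8 rpm in SIM 6 d libraries, against 19.9, 19.1 and 17.9 rpm in 0 d libraries (log2 fold change 1.89 ± 0.13, limma adjusted p = 1.08e-10). None of these groups overlapped, as for 79.1% of all genes tested, and the spread within a group was small beside the change. RNR2A (AT3G23580), a ribonucleotide reductase subunit, rose most in its list, with 32.5, 39.9 and 39.4 rpm in SIM 6 d libraries, against 6.70, 5.84 and 6.57 rpm in 0 d libraries (log2 fold change 2.37 ± 0.15, limma adjusted p = 2.2e-11). HTR2 (AT1G09200), a histone H3.1 gene with near-identical copies, rose by 0.91. Both lists were higher still at CIM 4 d, with median log2 fold changes over 0 d of 1.86 for ribosome and nucleolus and 1.66 for replication.

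Letters known from promoters of these genes were looked up in the same windows. The E2F site (TTTCCCGC or TTTGGCGC), bound by the factors that start S phase, stood in 6 of the 18 replication windows (33.3%), those of MCM2 (AT1G44900), MCM3 (AT5G46280), MCM4 (AT2G16440), MCM5, MCM6 (AT5G44635) and ORC1A (AT4G14700), against 1.297% of all windows. ORC1A rose by 0.42, but its call was lost with either scaling, by edgeR and DESeq2, and in a fit of the 2 groups alone. The call was also lost when SIM 6 d replicate 2, 0 d replicate 1 or 0 d replicate 3 was left out. The telo-box (AAACCCTA), common in ribosomal protein genes, stood in 7 of 11 ribosome and nucleolus windows (63.6%), against 5.56% of all. For MCM5 and MCM3, both among the 4 genes of the list that rose most, the 250 bases before the start are shown with the site in capitals, at chr2:3527501-3527750 (minus strand) and chr5:18773707-18773956 (minus strand); in MCM3 the capitals are the second form read on the other strand. For FIB2 and RPS6B the site lies just past the start, and 30 bases around it are shown, at chr4:13074103-13074132 (plus strand) and chr5:3260213-3260242 (minus strand).
MCM5: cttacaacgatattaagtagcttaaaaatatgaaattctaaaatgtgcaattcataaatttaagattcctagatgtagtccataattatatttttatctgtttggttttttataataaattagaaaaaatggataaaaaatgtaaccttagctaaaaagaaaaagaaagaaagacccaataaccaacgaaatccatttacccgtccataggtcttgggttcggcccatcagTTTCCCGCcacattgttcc
MCM3: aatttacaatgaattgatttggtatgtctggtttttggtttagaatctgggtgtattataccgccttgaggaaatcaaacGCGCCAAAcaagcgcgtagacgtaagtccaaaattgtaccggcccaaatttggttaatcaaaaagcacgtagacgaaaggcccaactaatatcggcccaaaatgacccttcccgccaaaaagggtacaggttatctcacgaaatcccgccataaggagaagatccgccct
FIB2: aaaccctgttaAAACCCTAgcttgaaacac
RPS6B: actttctcgcaAAACCCTAaaagctgagcc

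Cell-cycle genes rose in part. Of 34 genes 21 rose and 6 fell (median 0.81), against 49.7% of all genes tested that were higher and 24.9% that were lower. With either scaling 18 rose and 11 fell, and with TMM 7697 and 6837 of all 20361 genes did. CYCB1;1 (AT4G37490), a cyclin of the G2-to-M transition, had 18.7, 27.4 and 23.0 rpm in SIM 6 d libraries, against 5.54, 7.59 and 6.68 rpm in 0 d libraries (log2 fold change 1.65 ± 0.16, limma adjusted p = 9.96e-09). CYCD3;1 (AT4G34160), a G1 cyclin that responds to cytokinin, had 217, 256 and 263 rpm in SIM 6 d libraries, against 80.3, 75.5 and 79.0 rpm in 0 d libraries (log2 fold change 1.63 ± 0.10, limma adjusted p = 9.19e-12). CDKB1;1 (AT3G54180), a mitotic kinase, had 34.8, 35.7 and 32.6 rpm in SIM 6 d libraries, against 11.3, 11.5 and 11.6 rpm in 0 d libraries (log2 fold change 1.501 ± 0.10, limma adjusted p = 9.69e-11). All SIM 6 d libraries exceeded the 0 d libraries. The members that fell included SIM (AT5G04470), an inhibitor that promotes endoreduplication, with 21.2, 21.2 and 19.1 rpm in SIM 6 d libraries, against 101, 96.7 and 106 rpm in 0 d libraries (log2 fold change -2.25 ± 0.17, limma adjusted p = 2.65e-10), the inhibitor KRP1 (AT2G23430) and the G1 cyclin CYCD1;1 (AT1G70210). Another inhibitor, KRP7 (AT1G49620), and the cyclin CYCD4;1 (AT5G65420) rose most, by 2.23 and 2.105.

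Most genes of the shoot meristem and of organ boundaries rose, several of them from no read at 0 d. Of 32 such genes 27 were tested, 20 rose and 3 fell (median 1.43), against 49.7% and 24.9% of all genes tested. With either scaling 18 rose and 4 fell. WUS (AT2G17950), the homeodomain factor of the organising centre, had 1.87, 15.8 and 10.4 rpm in SIM 6 d libraries, against 0, 0 and 0 rpm in 0 d libraries, at least 101-fold higher with the 0 d libraries together set to 3 reads (limma adjusted p = 7.32e-05). CUC2 (AT5G53950), a NAC factor of organ boundaries, had 22.6, 29.3 and 32.6 rpm in SIM 6 d libraries, against 0, 0 and 0 rpm in 0 d libraries, at least 305-fold higher by the same bound (limma adjusted p = 9.82e-10). CLV3 (AT2G27250), the peptide that restricts WUS, had 0.72, 3.95 and 3.57 rpm in SIM 6 d libraries, against 0.0827, 0 and 0 rpm in 0 d libraries, a ratio of 88.7 (95% counting interval 15.6 to 3537) from 109 reads against 1. Each was higher in every SIM 6 d library than in any 0 d library, yet the SIM 6 d libraries differed among themselves, replicate 1 being the lowest in all 3. CUC1 (AT3G15170) showed the same order, with 1.94, 17.9 and 13.7 rpm in SIM 6 d libraries, against 0.414, 0.436 and 0 rpm in 0 d libraries (log2 fold change 2.88 ± 0.59, limma adjusted p = 0.000217). STM (AT1G62360), which keeps meristem cells undifferentiated, had 0.144, 12.1 and 4.53 rpm in SIM 6 d libraries, against 1.82, 0.174 and 1.31 rpm in 0 d libraries: the groups overlapped and it was not called (log2 fold change 1.14 ± 0.73, limma adjusted p = 0.164), but without SIM 6 d replicate 1 it was called at 2.11 (limma adjusted p = 0.00806), and without replicate 2 it was at 0.35.

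Some other members of this list were more even across the 3 SIM 6 d libraries. RAX1 (AT5G23000), a MYB factor of axillary meristems, had 16.5, 16.5 and 14.1 rpm in SIM 6 d libraries, against 0.165, 0.174 and 0 rpm in 0 d libraries (log2 fold change 3.91 ± 0.18, limma adjusted p = 2.89e-13). ESR1 (AT1G12980), an AP2 factor that promotes shoot regeneration, had 2.88, 2.71 and 3.89 rpm in SIM 6 d libraries, against 0, 0 and 0 rpm in 0 d libraries, at least 34.2-fold higher. PHV (AT1G30490), an HD-ZIP III factor of the upper leaf side, had 214, 235 and 273 rpm in SIM 6 d libraries, against 50.8, 58.6 and 53.5 rpm in 0 d libraries (log2 fold change 2.12 ± 0.14, limma adjusted p = 5.82e-11). None of these 3 had overlapping groups. PLT7 (AT5G65510), PLT3 (AT5G10510) and PLT5 (AT5G57390), which confer competence to form shoots, rose by 4.13, 2.93 and 1.87, and ANT (AT4G37750), a growth regulator of young organs, by 2.96. The 3 that fell were KNAT1 (AT4G08150), a KNOX factor of the stem, at -0.93 ± 0.15, the CLV3 receptor CLV1 (AT1G75820), at -1.19 ± 0.29 (and at -0.69 without SIM 6 d replicate 1), and KAN1 (AT5G16560), a factor of the lower leaf side, at -1.72 ± 0.17. The floral genes UFO and LFY were among the 5 that were too low to test.

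Genes of the root meristem and callus list differed in where they ended. Of 15 genes 4 rose and 8 fell (median -0.47; 3 and 10 with either scaling, 4 and 5 without SIM 6 d replicate 2, and 4 and 4 without it and 0 d replicate 1). Their summed level was 373, 335 and 379 rpm in SIM 6 d libraries, against 297, 294 and 296 rpm in 0 d libraries, and the list's median log2 fold change at CIM 4 d over 0 d was 2.52. WOX5 (AT3G11260), the homeodomain factor of the root stem-cell niche, had 0, 1.61 and 0 rpm in SIM 6 d libraries, against 1.82, 1.74 and 2.41 rpm in 0 d libraries (log2 fold change -1.11 ± 0.33, limma adjusted p = 0.0049), with 78.5 ± 20.1 rpm (SD, n = 3) at CIM 4 d. LBD16 (AT2G42430), a target of auxin in lateral root founder cells, had 0.36, 0.366 and 0.318 rpm in SIM 6 d libraries, against 20.6, 18.8 and 19.8 rpm in 0 d libraries (log2 fold change -3.94 ± 0.23, limma adjusted p = 5.46e-12), with 118 ± 10.9 rpm at CIM 4 d. Both ended lower than they began, WOX5 from a low level. SCR (AT3G54220), a GRAS factor of the endodermis and niche, had 8.27, 14.2 and 8.82 rpm in SIM 6 d libraries, against 49.9, 48.4 and 50.3 rpm in 0 d libraries (log2 fold change -2.18 ± 0.28, limma adjusted p = 7.42e-07). PLT1 (AT3G20840) and PLT2 (AT1G51190), root stem-cell factors, fell by 0.72 and 0.53, with 0 d means of 1.05 ± 0.434 and 0.791 ± 0.579 rpm; the call of PLT1 was lost without SIM 6 d replicate 2 or without 0 d replicate 3, and that of PLT2 without SIM 6 d replicate 2 or 3 or 0 d replicate 1 or 3. WOX11 (AT3G03660), which acts in founder cells of adventitious roots, stayed high, with 38.4, 18.7 and 23.8 rpm in SIM 6 d libraries, against 0, 0 and 0.328 rpm in 0 d libraries, a ratio of 296 (95% counting interval 101 to 1435) from 1089 reads against 3. WOX13 (AT4G35550), a callus and wound-repair factor, rose by 1.56, and ARF19 (AT1G19220), an auxin response factor, by 1.22. SHR (AT4G37650), which moves into the endodermis and activates SCR, rose by 0.37, but stood at -0.03 with median-of-ratios scaling and at -0.03 by DESeq2.

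**Figure D3:**
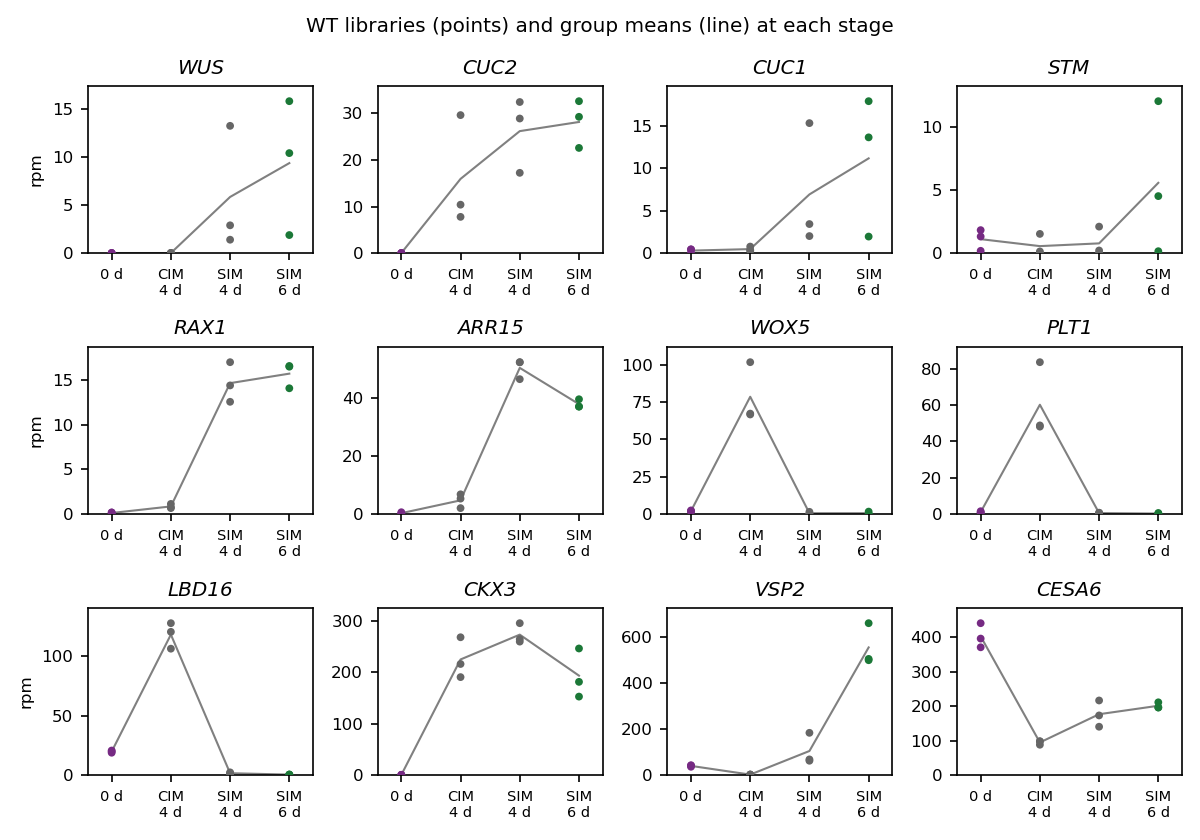
Level (rpm, linear axis from 0) of 12 genes in each WT library by stage, with 0 d at the left and SIM 6 d at the right; points are libraries and the line joins group means. WOX5, PLT1 and LBD16 are highest at CIM 4 d, RAX1 and ARR15 on SIM, and CKX3 is high at the 3 later stages, while WUS, CUC1 and STM spread widely among the SIM 6 d libraries.

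Cytokinin genes rose in most members. Of 27 genes 24 were tested, 19 rose and 4 fell (median 1.17), against 49.7% and 24.9% of all genes tested. With TMM scaling 15 rose and 4 fell, and with median-of-ratios scaling 14 and 4. The type-A response regulators, induced by cytokinin, were high: ARR15 (AT1G74890) had 39.4, 36.9 and 36.9 rpm in SIM 6 d libraries, against 0.165, 0.611 and 0.109 rpm in 0 d libraries (log2 fold change 4.92 ± 0.45, limma adjusted p = 8.02e-09). ARR7 (AT1G19050) had 113, 109 and 110.5 rpm in SIM 6 d libraries, against 8.69, 8.81 and 12.04 rpm in 0 d libraries (log2 fold change 3.38 ± 0.15, limma adjusted p = 8.24e-14). ARR5 (AT3G48100) had 140.4, 122 and 136 rpm in SIM 6 d libraries, against 64.8, 67.6 and 80.6 rpm in 0 d libraries (log2 fold change 0.90 ± 0.12, limma adjusted p = 9.8e-07). The groups were apart in all 3, although the change of ARR5 was small. Cytokinin oxidases rose too, CKX1 (AT2G41510) by 4.11 next to CKX3 at 7.22. Of the receptors, AHK4 (AT2G01830) had 290.1, 240.1 and 254 rpm in SIM 6 d libraries, against 62.4, 74.8 and 71.1 rpm in 0 d libraries (log2 fold change 1.90 ± 0.14, limma adjusted p = 3.27e-10), while AHK2 (AT5G35750) and AHK3 (AT1G27320) fell, at -0.56 ± 0.13 and -1.21 ± 0.09. IPT3 (AT3G63110), which makes cytokinin, had 0.288, 0.439 and 1.51 rpm in SIM 6 d libraries, against 29.1, 45.8 and 30.2 rpm in 0 d libraries (log2 fold change -4.40 ± 0.35, limma adjusted p = 5.97e-10), and the type-B regulator ARR1 (AT3G16857) fell at -1.14 ± 0.08.

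Auxin genes showed no single direction beyond that of all genes. Of 25 genes 22 were tested, 10 rose and 4 fell (median 0.38, against 0.36 for all genes; 8 and 7 with median-of-ratios scaling). YUC4 (AT5G11320), an auxin-synthesis enzyme, had 1.65, 12.005 and 7.54 rpm in SIM 6 d libraries, against 0, 0 and 0 rpm in 0 d libraries, at least 76.5-fold higher. YUC9 (AT1G04180) of the same family had 0.072, 0 and 0 rpm in SIM 6 d libraries, against 4.22, 6.89 and 3.17 rpm in 0 d libraries, which makes the 0 d level higher by a ratio of 195 (95% counting interval 34.6 to 7762). Both had separate groups. YUC8 (AT4G28720) and the auxin importer AUX1 (AT2G38120) also fell, at -1.07 ± 0.32 and -0.48 ± 0.11, the call of YUC8 being lost without both libraries that stand apart. The early auxin-response gene IAA1 (AT4G14560) rose by 1.97, and DAO1 (AT1G14130), which oxidises auxin, by 1.90. Among the amidosynthetases that store auxin as conjugates, GH3.6 (AT5G54510) rose at 1.62 ± 0.23 and GH3.5 (AT4G27260) fell at -1.39 ± 0.22.

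Wound-induced reprogramming factors mostly stayed above 0 d. Of 8 genes 7 were tested, 5 rose and 2 fell (median 1.33), against 49.7% and 24.9% of all genes tested. ANAC071 (AT4G17980), which acts in tissue reunion, had 40.9, 23.7 and 39.9 rpm in SIM 6 d libraries, against 2.15, 1.74 and 1.42 rpm in 0 d libraries (log2 fold change 3.66 ± 0.39, limma adjusted p = 8.04e-08). ERF113 (AT5G13330), an AP2 factor of wound-induced callus, had 352, 325 and 461 rpm in SIM 6 d libraries, against 61.5, 56.3 and 63.4 rpm in 0 d libraries (log2 fold change 2.62 ± 0.23, limma adjusted p = 3.78e-09). Their groups did not overlap. WIND3 (AT1G36060), ERF115 (AT5G07310) and ERF114 (AT5G61890) rose by 2.28, 1.33 and 0.95, and WIND2 (AT1G22190) fell by 1.00. WIND1 (AT1G78080), the founder of that family, had 302, 279 and 289.6 rpm in SIM 6 d libraries, against 388, 443 and 419.9 rpm in 0 d libraries (log2 fold change -0.52 ± 0.22, limma adjusted p = 0.0423), a call lost without any single library of the 6 (limma adjusted p of 0.053 to 0.105).

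Most of the early wound and touch genes that were called were lower at SIM 6 d. The 0 d tissue was taken within 15 minutes of cutting. The series holds no uncut hypocotyl, so an effect of cutting was not tested. Of 23 genes 2 rose and 12 fell (median -0.72), against 49.7% and 24.9% of all genes tested. ZAT6 (AT5G04340), a zinc-finger factor, had 1.73, 1.98 and 1.35 rpm in SIM 6 d libraries, against 15.8, 24.2 and 29.9 rpm in 0 d libraries (log2 fold change -3.14 ± 0.23, limma adjusted p = 2.54e-10). ZAT10 (AT1G27730) had 7.20, 3.73 and 5.72 rpm in SIM 6 d libraries, against 13.6, 60.3 and 45.5 rpm in 0 d libraries (log2 fold change -2.44 ± 0.51, limma adjusted p = 0.000264). WRKY40 (AT1G80840) had 0.504, 0.366 and 0.794 rpm in SIM 6 d libraries, against 3.64, 13.7 and 12.04 rpm in 0 d libraries (log2 fold change -2.64 ± 0.60, limma adjusted p = 0.000584). In all 3, 0 d replicate 1 was the lowest 0 d library and still lay above SIM 6 d. CML38 (AT1G76650), a calmodulin-like protein, and WRKY18 (AT4G31800) were the 2 that rose, by 2.72 and 2.19.

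Jasmonate genes fell in most called members. Of 23 genes 19 were tested, 5 rose and 10 fell (median -0.53), against 49.7% and 24.9% of all genes tested. With either scaling 3 rose and 12 fell. MYC2 (AT1G32640), the central jasmonate factor, had 35.4, 34.3 and 39.2 rpm in SIM 6 d libraries, against 237, 338 and 298 rpm in 0 d libraries (log2 fold change -2.96 ± 0.16, limma adjusted p = 2.68e-12). JAZ6 (AT1G72450), a repressor that jasmonate induces, had 3.09, 5.05 and 3.81 rpm in SIM 6 d libraries, against 25.7, 25.6 and 31.2 rpm in 0 d libraries (log2 fold change -2.53 ± 0.16, limma adjusted p = 3.27e-11). VSP2 (AT5G24770), a vegetative storage protein gene, went the other way, with 500.4, 506 and 662 rpm in SIM 6 d libraries, against 42.7, 40.6 and 35.9 rpm in 0 d libraries (log2 fold change 3.76 ± 0.45, limma adjusted p = 4.71e-07). No overlap was seen in these. The synthesis enzyme AOS (AT5G42650) fell by 2.203, and VSP1 (AT5G24780) rose by 1.84. The synthesis gene LOX3 (AT1G17420), the repressor gene JAZ5 (AT1G17380) and OPR3 (AT2G06050), another synthesis enzyme, rose by 1.68, 0.85 and 0.38, OPR3 standing at -0.02 with median-of-ratios scaling. The calls of JAZ5 and OPR3 were lost with either scaling and without 0 d replicate 1 (limma adjusted p = 0.107 and 0.0534), and that of OPR3 without SIM 6 d replicate 2. VSP2 had stood at 1.80 ± 0.533 rpm at CIM 4 d.

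No gene of salicylic acid and systemic defence was called: of 17 tested, none rose and none fell by limma, by edgeR 1 fell, and by DESeq2 2 rose and 1 fell; 1 fell with either scaling, and 1 rose without SIM 6 d replicate 2. Of the 17, 1 gene had an unadjusted limma p under 0.05. ICS1 (AT1G74710), which makes salicylic acid, had 9.71, 7.10 and 10.7 rpm in SIM 6 d libraries, against 4.14, 3.84 and 3.502 rpm in 0 d libraries (log2 fold change 1.06 ± 1.00, limma adjusted p = 0.347). PR1 (AT2G14610), the classical marker of the pathway, had 0.072, 0 and 0.159 rpm in SIM 6 d libraries, against 0, 0 and 0 rpm in 0 d libraries. The ICS1 groups did not overlap, and a fit of the 2 groups alone called it (limma adjusted p = 0.00079). Summed over this list, WT CIM 4 d libraries, which enter the shared spread, held 139, 1423 and 139 rpm.

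Heat-shock genes depended on 1 library. Of 16 genes 14 were tested, 5 rose and 1 fell, with a median of 2.44 (3 and 1 with either scaling, 10 and 1 by edgeR, 2 and 1 by DESeq2); without SIM 6 d replicate 2, 2 rose and 4 fell, with a median of -0.02. The summed level was 158, 9651 and 159 rpm in SIM 6 d libraries, against 329, 232 and 298 rpm in 0 d libraries. HSP101 (AT1G74310), a chaperone that resolves aggregates, had 32.3, 283 and 30.2 rpm in SIM 6 d libraries, against 22.2, 15.2 and 17.9 rpm in 0 d libraries (log2 fold change 1.79 ± 0.57, limma adjusted p = 0.00878), and without SIM 6 d replicate 2 it was not called (0.75, limma adjusted p = 0.0597). HSP18.2 (AT5G59720) had 13.5, 2156 and 14.6 rpm in SIM 6 d libraries, against 0.248, 2.27 and 1.53 rpm in 0 d libraries (log2 fold change 5.17 ± 1.19, limma adjusted p = 0.000702) and 2.79 without that library. Replicate 2 alone stood high in both. The other 3 that rose were HSP26.5 (AT1G52560), HSP17.4 (AT3G46230) and HSP90.1 (AT5G52640), at 3.27, 3.18 and 2.16 with that library and 1.11, 0.24 and 0.30 without it. The calls of HSP17.4 and HSP90.1 were also lost without 0 d replicate 1. HSFA7A (AT3G51910), a heat-shock factor, was the member that fell, with 10.4, 11.3 and 15.5 rpm in SIM 6 d libraries, against 54.7, 58.2 and 71.9 rpm in 0 d libraries (log2 fold change -2.23 ± 0.36, limma adjusted p = 1.6e-05).

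**Figure D4:**
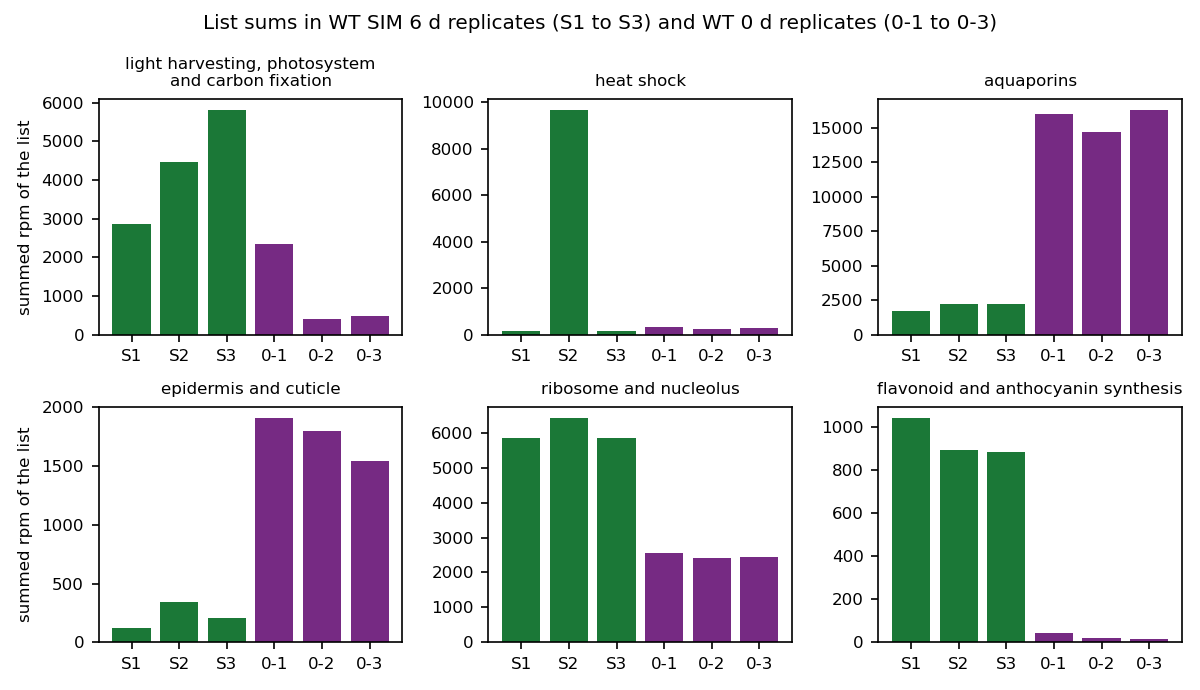
Summed level (rpm, linear axes from 0) of 6 gene lists in the WT SIM 6 d replicates (S1 to S3) and the WT 0 d replicates (0-1 to 0-3). Replicate 1 at 0 d stands apart in the photosynthesis list (2335 rpm against 400 and 469) and SIM 6 d replicate 2 in the heat-shock list (9651 rpm against 158 and 159). Of the 6 lists, only heat shock has overlapping groups.

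Markers of cell layers were used to check the labelled tissue and moved apart from each other. Of 9 epidermis and cuticle genes 6 fell and 2 rose (median -3.09), and the summed level was 119, 343 and 210 rpm in SIM 6 d libraries, against 1908, 1796 and 1545 rpm in 0 d libraries. KCS6 (AT1G68530), which elongates fatty acids for cuticular wax, had 6.19, 12.6 and 9.13 rpm in SIM 6 d libraries, against 1152, 1314 and 1067 rpm in 0 d libraries (log2 fold change -6.88 ± 0.40, limma adjusted p = 1.64e-11). CER1 (AT1G02205), which makes wax alkanes, had 1.51, 2.64 and 1.27 rpm in SIM 6 d libraries, against 146, 93.1 and 89.5 rpm in 0 d libraries (log2 fold change -5.29 ± 0.29, limma adjusted p = 4.89e-12). ATML1 (AT4G21750), a homeodomain factor that specifies epidermis, had 0.504, 7.03 and 1.35 rpm in SIM 6 d libraries, against 42.8, 26.52 and 26.7 rpm in 0 d libraries (log2 fold change -3.40 ± 0.42, limma adjusted p = 5.6e-07). The 2 groups were far apart for each, and SIM 6 d replicate 2 was the highest of its group. PDF1 (AT2G42840), another marker of the outer layer, was not called: it had 0.576, 49.2 and 5.48 rpm in SIM 6 d libraries, against 68.8, 3.93 and 13.02 rpm in 0 d libraries, and without SIM 6 d replicate 2 it was lower (-2.40, limma adjusted p = 0.0115). The L1 box (TAAATGCA or TAAATGTA), the site of ATML1 and PDF2, stood in 2 of 9 epidermis windows, against 5.04% of all. The cutin-synthesis gene LACS2 (AT1G49430) and the lipid-transfer gene LTP1 (AT2G38540) were the 2 that rose. The LTP1 groups overlapped, and its call was lost with either scaling, by edgeR and DESeq2 and without SIM 6 d replicate 2 (limma adjusted p = 0.171), among others; the list then had 1 higher.

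The endodermis and suberin list changed in both directions. The 15 genes gave 6 higher and 8 lower, and the counts were 6 and 8 with both scalings. The 5 CASP genes and ESB1 (AT2G28670), which lay down the Casparian strip, fell, as did their regulator MYB36 (AT5G57620) and KCS2 (AT1G04220), an elongase gene of suberin synthesis. The call of MYB36 was lost whichever single library of the 6 was left out (limma adjusted p of 0.0537 to 0.089). That of KCS2 was lost without SIM 6 d replicate 2 or 3 or 0 d replicate 1 or 2. Without 0 d replicate 1, or without SIM 6 d replicate 2, 6 genes of the list were lower. CASP1 (AT2G36100) had 2.37, 0.0732 and 0.238 rpm in SIM 6 d libraries, against 61.5, 69.6 and 53.4 rpm in 0 d libraries (log2 fold change -5.24 ± 0.48, limma adjusted p = 7.02e-09). The 6 that rose also act in suberin synthesis: FAR5 (AT3G44550), a fatty acyl reductase, had 154, 152 and 99.9 rpm in SIM 6 d libraries, against 3.56, 5.84 and 3.17 rpm in 0 d libraries (log2 fold change 4.72 ± 0.31, limma adjusted p = 6.12e-11). CYP86A1 (AT5G58860), a fatty acid hydroxylase, had 135, 113 and 89.1 rpm in SIM 6 d libraries, against 13.2, 11.6 and 16.3 rpm in 0 d libraries (log2 fold change 2.94 ± 0.44, limma adjusted p = 6.44e-06). No group overlapped in these genes. FAR4 (AT3G44540), CYP86B1 (AT5G23190), GPAT5 (AT3G11430) and ASFT (AT5G41040) rose by 2.85, 2.91, 2.14 and 1.46. At CIM 4 d CYP86A1 averaged 1.78 ± 0.949, CYP86B1 0.903 ± 0.297 and GPAT5 0.691 ± 0.631 rpm (SD, n = 3 each).

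Vascular markers changed in both directions. The counts in this paragraph stand beside 49.7% of all genes tested that were higher and 24.9% that were lower. Of 11 xylem genes 5 fell and 2 rose (median -0.48): LAC4 (AT2G38080), a laccase of lignin formation, had 44.8, 43.0 and 39.6 rpm in SIM 6 d libraries, against 143, 174 and 129 rpm in 0 d libraries (log2 fold change -1.77 ± 0.29, limma adjusted p = 1.72e-05), the laccase gene LAC17 (AT5G60020) fell by 1.24, and the secondary-wall cellulose synthases CESA4 (AT5G44030), CESA7 (AT5G17420) and CESA8 (AT4G18780) fell by 0.97, 0.88 and 0.85; the call of CESA8 was lost without SIM 6 d replicate 2 (limma adjusted p = 0.0742). The call of 2 higher, for VND6 (AT5G62380) and VND7 (AT1G71930), was lost with both scalings, and that of VND6 without either library that stands apart. Among 10 phloem and cambium genes 4 rose and 2 fell, neither count being above its share of all genes. With TMM scaling 3 rose and 4 fell, with median-of-ratios scaling and by edgeR 3 and 5, and by DESeq2 3 and 6. WOX4 (AT1G46480), a cambium factor, had 86.8, 63.9 and 99.4 rpm in SIM 6 d libraries, against 10.4, 9.60 and 8.87 rpm in 0 d libraries (log2 fold change 2.97 ± 0.33, limma adjusted p = 1.72e-07). PXY (AT5G61480), the receptor kinase of the cambium, had 471, 473 and 636 rpm in SIM 6 d libraries, against 174, 171 and 164 rpm in 0 d libraries (log2 fold change 1.62 ± 0.43, limma adjusted p = 0.00244). Both had separate groups. SMXL5 (AT5G57130), a phloem regulator, and SUC2 (AT1G22710), the sucrose carrier of companion cells, were the other 2 that rose, at 1.92 ± 0.22 and 0.61 ± 0.24; the call of SUC2 was lost with either scaling, by edgeR and DESeq2, without SIM 6 d replicate 1, without 0 d replicate 2 and without both libraries that stand apart. Of 7 root-hair genes 4 rose from very few reads: RHD6 (AT1G66470), which starts root hairs, had 7.48, 9.88 and 2.78 rpm in SIM 6 d libraries, against 0.165, 0.0872 and 0.766 rpm in 0 d libraries (log2 fold change 2.43 ± 0.39, limma adjusted p = 1.41e-05), and EXPA7 (AT1G12560), EXPA18 (AT1G62980) and COBL9 (AT5G49270) had no read at 0 d and rose at least 40.4-fold, 29.6-fold and 19.0-fold. EXPA7 had 3.89, 6.30 and 0.715 rpm in SIM 6 d libraries, against 0, 0 and 0 rpm in 0 d libraries, and like the other two it was lowest in SIM 6 d replicate 3. The 2 that fell were WER (AT5G14750), whose call was lost when any 1 of 4 libraries was left out, and GL2 (AT1G79840), whose call was lost in several alternatives and which stood at -0.37 without 0 d replicate 1 (limma adjusted p = 0.295); with either scaling 3 fell. The 7 stomatal-lineage genes, among them SPCH (AT5G53210), were close to 0 throughout, with sums of 0.36 to 2.42 rpm in SIM 6 d libraries, against 0.219 to 3.81 rpm in 0 d libraries. The 11 embryo and seed genes summed to 0.0794 to 0.952 rpm in SIM 6 d libraries, against 16.5, 0.349 and 1.97 rpm in 0 d libraries; the storage and oil-body markers CRA1, CRU3, OLEO1, OLEO2, SESA1, EM1 and EM6 had no read at SIM 6 d.

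Most genes of nitrogen use rose, and most phosphate-starvation genes that were called fell. Of 8 nitrate and ammonium genes 6 rose and 2 fell (median 0.94), against 49.7% and 24.9% of all genes tested. With either scaling 5 rose and 2 fell. NIA2 (AT1G37130), the main nitrate reductase, had 966, 999 and 1295 rpm in SIM 6 d libraries, against 165, 194 and 163 rpm in 0 d libraries (log2 fold change 2.63 ± 0.20, limma adjusted p = 4.43e-10). NRT1.1 (AT1G12110), a nitrate transporter and sensor, had 13.8, 37.0 and 36.1 rpm in SIM 6 d libraries, against 196, 197 and 143 rpm in 0 d libraries (log2 fold change -2.69 ± 0.39, limma adjusted p = 4.85e-06). Neither gene's groups overlapped. GLN1;1 (AT5G37600), a glutamine synthetase, was the other that fell, at -0.38 ± 0.15, a call lost without SIM 6 d replicate 2; without that library 4 rose and 1 fell. Of 13 phosphate-starvation genes 5 fell and 1 rose, against 8 and none with either scaling and without SIM 6 d replicate 2, and 7 and none by edgeR and DESeq2. The riser, SQD2 (AT5G01220) of sulfolipid synthesis, was at 0.34 ± 0.13 and stood at -0.05 with median-of-ratios scaling; PAP17 (AT3G17790), an acid phosphatase, had 2.88, 7.17 and 2.30 rpm in SIM 6 d libraries, against 151, 130.1 and 198 rpm in 0 d libraries (log2 fold change -5.07 ± 0.35, limma adjusted p = 1.46e-10). The others that fell, PS2 (AT1G73010), IPS1 (AT3G09922), MGD3 (AT2G11810) and SPX3 (AT2G45130), changed by less than 1 on the log2 scale. The call of PS2 was lost without SIM 6 d replicate 3, without 0 d replicate 2 and in a fit of the 2 groups alone (limma adjusted p of 0.0978 to 0.118). That of IPS1 was lost without 0 d replicate 3 and with a pseudocount of 4 (limma adjusted p = 0.0873 and 0.0577). That of SPX3 was lost without SIM 6 d replicate 3 (limma adjusted p = 0.0591) and without both libraries that stand apart.

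Some genes that differed between SIM 6 d and 0 d had a similar level, or few reads at both stages, in callus and in the hypocotyl. A gene was counted as having passed through callus unchanged when its net change was called and at least 2-fold, and its CIM 4 d level was within 0.5 of 0 d on the log2 scale with a 95% interval inside 1. This held for 503 genes (2.47%) that were higher and 184 (0.904%) that were lower, which is 9.98% and 6.71% of the net changes of that size. The count is a description, since both comparisons share the 0 d libraries, and 29.8% of all genes tested were that flat at CIM 4 d. Flatness was judged on log2(rpm + 1), so a gene near 0 rpm at both stages also met the rule. With a pseudocount of 0.25, 352 higher and 180 lower genes met it, and with a filter of 5 rpm 369 and 163. Scaling decided much of the membership: with TMM scaling 475 and 204 genes met the rule, and 276 of the 503 and 82 of the 184 were among them; with median-of-ratios scaling 246 and 68 were. Without 0 d replicate 1 and SIM 6 d replicate 2, 368 and 145 were. Without CIM 4 d replicate 2, a choice made after seeing the data, 491 and 170 genes met the rule, among them 402 of the 503 and 148 of the 184. The change over the SIM step alone was called for 499 of the 503 and for all 184, which the rule largely fixes. With a net change of at least 1 and a CIM change within 0.5, the SIM step is at least 0.5.

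Among those that were higher, FAR5 of suberin synthesis led, with 4.52 ± 0.424 rpm (SD, n = 3) at CIM 4 d beside the values above. MEE3 (AT2G21650), a MYB-related factor, had 15.9, 17.42 and 15.73 rpm in SIM 6 d libraries, against 0, 0 and 0 rpm in 0 d libraries and 0.276 ± 0.104 rpm at CIM 4 d, at least 178-fold higher at SIM 6 d than at 0 d. CHIL (AT5G05270), a chalcone-isomerase-like protein that aids flavonoid synthesis, had 56.4, 48.9 and 40.8 rpm in SIM 6 d libraries, against 3.81, 1.74 and 1.75 rpm in 0 d libraries (log2 fold change 3.90 ± 0.26, limma adjusted p = 6.23e-11), with 2.05 ± 0.678 rpm at CIM 4 d. AT2G22590, a UDP-glycosyltransferase, had 20.1, 7.98 and 11.8 rpm in SIM 6 d libraries, against 0, 0 and 0 rpm in 0 d libraries, at least 145-fold higher. The flat step to CIM 4 d is what the rule requires, and SIM 6 d libraries stood above the 0 d libraries in each. The other 4 of the 8 with the largest rise were AT5G16030, AT1G63880 (an NBS-LRR resistance protein), AT3G21680 and AT5G58330 (lactate/malate dehydrogenase family), at 3.95, 3.80, 3.63 and 3.43. Of the 8, AT5G16030 did not meet the rule with either scaling and AT5G58330 did not without the 2 libraries that stand apart. List members among the 503 came from several lists and included AHK4, PORC (AT1G03630), CGA1, LAX2 (AT2G21050), ARR16 (AT2G40670), ESR2 (AT1G24590), CYCD6;1 (AT4G03270) and LOX3.

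Of the 8 lower genes with the largest fall, 3 are described in full. MYB96 (AT5G62470), a MYB factor that promotes cuticular wax, had 0.863, 2.34 and 1.91 rpm in SIM 6 d libraries, against 49.6, 57.9 and 57.2 rpm in 0 d libraries (log2 fold change -4.41 ± 0.29, limma adjusted p = 5.11e-11), with 45.2 ± 5.11 rpm at CIM 4 d. PDF2 (AT4G04890), the partner of ATML1, had 1.37, 8.42 and 2.22 rpm in SIM 6 d libraries, against 64.1, 52.9 and 46.6 rpm in 0 d libraries (log2 fold change -3.73 ± 0.41, limma adjusted p = 1.14e-07), with 52.6 ± 15.5 rpm at CIM 4 d. JKD (AT5G03150), a zinc-finger factor of the ground tissue, had 2.01, 2.64 and 1.83 rpm in SIM 6 d libraries, against 52.7, 50.9 and 48.0 rpm in 0 d libraries (log2 fold change -4.04 ± 0.28, limma adjusted p = 1.06e-10), with 46.5 ± 10.97 rpm at CIM 4 d. All SIM 6 d libraries lay below all 0 d libraries. At SIM 4 d MYB96, PDF2 and JKD were already at 0.981 ± 0.27, 3.78 ± 1.31 and 5.77 ± 3.26 rpm. AT1G55260 (lipid-transfer family) led this side at -4.76 ± 0.28, and SIS (AT5G02020), AT1G05135, HWI1 (AT1G70690) and AT5G40800 completed the 8, at -3.20 to -3.73. With either scaling 1, AT1G05135, of the 8 met the rule, because the scaling moved their CIM 4 d value down, for example to -0.63 for MYB96 with TMM against -0.28 without. Without the 2 libraries that stand apart, MYB96 and AT1G05135 did not meet the rule. The brassinosteroid receptor BRI1 (AT4G39400) and the synthesis gene DWF4 (AT3G50660) were among the 184.

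**Figure D5:**
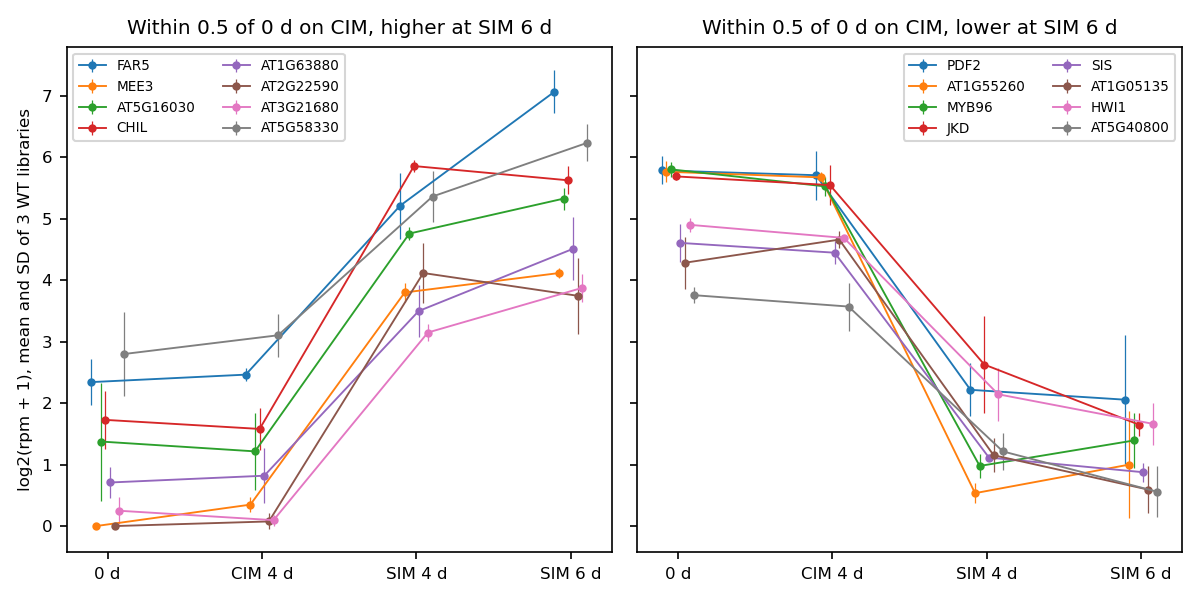
Level (log2 of rpm + 1, mean and SD of 3 WT libraries) at the 4 stages, 0 d leftmost, of the 8 genes with the largest rise and the 8 with the largest fall among those that passed through callus unchanged. Lines stay within 0.5 between 0 d and CIM 4 d, which the rule requires, and have moved by SIM 4 d.

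The net change was also measured in siz1-2, whose label was checked on SIZ1 itself: reads of isoform 1 beyond those of isoform 3 numbered -1 to 0 in the 6 siz1-2 libraries used, against 216 to 376 in the 6 WT libraries. In siz1-2, SIM 6 d over 0 d, 10801 genes (53.0%) were higher and 4969 (24.4%) lower. Of the higher genes 9440 were shared with WT, 87.4% of the siz1-2 list and 93.3% of the WT list, and of the lower genes 4360, 87.7% and 86.0%. The change differed between siz1-2 and WT for 994 genes (4.88%), 549 (2.7%) with a higher net change in siz1-2 and 445 (2.19%) with a lower one. These counts were less stable than the others: without SIM 6 d replicate 1 of siz1-2 they were 212 and 253, without WT SIM 6 d replicate 1 263 and 290, without WT 0 d replicate 1 260 and 290, and without siz1-2 SIM 6 d replicate 2 335 and 342. Of the 503 and 184 genes that passed through callus unchanged in WT, 461 and 174 had a net change called in the same direction in siz1-2. The shoot-meristem list had a median of 1.66 in siz1-2 and 1.43 in WT, and the photosynthesis list 3.89 in siz1-2 and 3.09 in WT; the difference between such medians was not tested. WUS averaged 12.4 ± 3.42 rpm in siz1-2 SIM 6 d libraries and 9.36 ± 7.03 rpm in WT SIM 6 d libraries (SD, n = 3 each), and its net change did not pass the test of a difference (siz1-2 minus WT 0.68 ± 0.79, limma adjusted p = 0.677).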

How the data were processed

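RNA-seq libraries of WT and siz1-2 explants at 4 stages, 3 a group, were used. The deposited signal is a value per isoform; per the submitters' processing notes, bcl2fastq, Bowtie 1.2.1 and the TAIR10 build were used, and the counting rule and use of strand are not given in the sources used here. Each deposited value was a whole number of reads (tolerance 0.001, 100% of values) divided by the library total and multiplied by 1000000. The reads of the 24 libraries ranged from 7979350 to 15591781 each; depth limits precision, and bounds and intervals cover counting error only.

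Each of 25960 genes was given the isoform with the highest mean over 24 libraries. Genes of at least 1 rpm in at least 3 libraries (20361; 5599 were not tested) were fitted on log2(rpm + 1) with limma 3.58.1 (R 4.3.3; trended, robust variance) with 8 group means and 16 residual degrees of freedom, and p-values were adjusted by Benjamini-Hochberg over all genes tested. The fit was tested on simulated data. A group with 0 reads was set to 3 reads over the group; with 1 to 3 reads, the ratio has an exact 95% interval. Alternatives were other pseudocounts, filters and scalings, summed isoforms, only the groups compared, leaving out libraries, a replicate block, edgeR 4.0.16 and DESeq2 1.42.0 on the recovered reads; edgeR called 7728 genes higher and 6809 lower. The labels do not say whether the replicates came from separate cultures, and the p-values measure the spread between these libraries, which may be technical.

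The members and the 30 gene lists (472 genes, 429 tested) were chosen with earlier results of these data known. Named by rule were the 12 genes with the largest rise and the 12 with the largest fall among called genes whose groups do not overlap, up to 4 called members a list, 28 marker genes, and the 8 largest each way that passed through callus unchanged; 89 others were named after their values were seen. Of the gene IDs 25593 matched the RefSeq annotation of TAIR10.1.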

Additional observations from a re-analysis of the deposited data

Results flagged for a closer look

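For 25 of the genes named above or by the naming rule, the net change differed between siz1-2 and WT by the test of the difference (limma adjusted p below 0.05), which is what singled them out; 4.88% of all genes tested did so. The values are siz1-2 minus WT on the log2 scale. In 11 genes the difference was called without any single library of the 12. The starvation gene DIN2 had the lowest value, -4.30, with a net change of -8.54 in siz1-2 and -4.24 in WT. The heat-shock chaperone gene HSP101 was at -3.64 and at -2.60 without WT SIM 6 d replicate 2. The light-signalling gene HY5 had a net change of -1.08 in siz1-2 and 0.84 in WT, a difference of -1.92, and its homologue HYH was at -1.15, and at -1.05 without WT 0 d replicate 1 and WT SIM 6 d replicate 2 together (limma adjusted p = 0.0681), where its call was lost. The other 7 of these were ZAT6 (-2.01), the peroxidase gene AT2G38380 (-1.24), LBD16 (1.503), NRT1.5 (1.35), EXPA6 (1.34), DAO1 (0.995) and FIB2 (0.88).

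The call of the other 14 was lost without at least 1 library. HSFA2, a heat-shock factor, was at -3.57, and at -3.07 without WT SIM 6 d replicate 2 (limma adjusted p = 0.0518). A higher net change in siz1-2 was seen for PCK1 (1.46), TIP2;2 (1.14), CYCB1;1 (0.85), HTR2 (0.78), DWF4 (0.67), CDKB1;1 (0.64), AUX1 (0.62) and RPS6A (0.53). A lower one was seen for AT3G21680 (-1.63), CYP86B1 (-1.46), WIND2 (-1.07), CAO (-1.04) and XTH24 (-1.01).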

How the results depend on the processing

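The counts of net changes and of genes that passed through callus unchanged stayed within 1.5 times under each alternative tried, although scaling changed which genes were counted as having passed unchanged, as given above. Without each of the 6 WT libraries in turn, 9594 to 9795 genes were higher and 4728 to 4854 lower; for those and CIM 4 d replicate 2 (added after seeing the data), 431 to 571 and 170 to 208 passed through callus unchanged. Of genes whose change differed between siz1-2 and WT, 549 had a higher change in siz1-2; the number was 342 with TMM scaling, 274 with median-of-ratios scaling, 203 by edgeR, 300 by DESeq2, 256 without WT 0 d replicate 1 and WT SIM 6 d replicate 2, and 212 to 663 without each of the 12 libraries in turn. The 445 with a lower change were 711 by DESeq2, 290 without those 2 libraries and 253 to 493 without each in turn. Among 242 tested genes named above or by the naming rule, 188 kept their direction and call under each of 18 alternatives that gave them a value (CHS and ELP had none by DESeq2); over all genes and alternatives 4134 results were the same, 177 lost the call, 11 gained it and 6 turned direction. The 6 were SHR at -0.0337 with median-of-ratios scaling and -0.0313 by DESeq2, OPR3 at -0.0165 and -0.00244, and SQD2 at -0.0486 and -0.0508; the cause was not tested. Of 1080 list counts, 950 stayed within 1.5 times. Same-numbered libraries did not deviate together (correlations -0.292, -0.159 and -0.0846). With 3 libraries a group this cannot show whether same-numbered libraries were grown or processed together, and the main fit used no pairing. A fit with the replicate block called 10076 genes higher and 5043 lower. It gave 498 and 185 that passed through callus unchanged, and 491 and 385 that differed between siz1-2 and WT. Genes under 1 rpm in most libraries are limited by depth.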
